A study of Homo sapiens with 32 samples.

Results

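HGrC1 cells kept in 0.01 µM PFOS (perfluorooctane sulfonate, a persistent fluorinated surfactant) for 6 weeks were compared with vehicle control cells of the same age. HGrC1 is an established line of non-luteinized human granulosa cells, the somatic cells that surround and nourish the oocyte. The comparison took the 8 libraries labelled with these conditions, 4 per group, out of 32 in the series, and it asks what the lowest concentration did to the transcriptome at the earlier time. Control cells received 0.05% DMSO, and both groups were grown in medium with 10% fetal bovine serum and 100 nM of a hormone, which the sample labels give as estradiol and the study's methods as testosterone. PFOS was renewed at each passage. The 4 replicates came from separately frozen vials of the one line, and cells of each vial were split over all groups, so replicate numbers match across groups and are called vials 1 to 4. They are repeats of culture and not of donors.

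Granulosa cells convert cholesterol-derived androgens to estrogen, and they depend on cholesterol that they take up or build through the SREBP (sterol regulatory element binding protein) programme. They also build a matrix that is shaped by TGF-beta family ligands such as activins and BMPs. PFOS is best known in liver for acting on fatty acid receptors and lipid handling.

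The label was checked against marker genes. The ovarian transcription factors WT1 and GATA4 were present at 1012 to 1254 and 2399 to 2728 counts per library over both groups. Other granulosa markers were scarce, with FOXL2 at 14 to 37 counts, the inhibin subunit INHA at 13 to 25, NR5A1 at 1 to 10 and AMHR2 at 0 to 2. CYP19A1, the aromatase that defines estrogen-producing granulosa cells, had 0 counts in all 8 libraries, and 3 counts per library is the level that a count of 0 allows. The FSH and LH receptors were looked for as markers but were not among the genes with values, so they were not analysed here. Mesothelial markers were present, led by LRRN4 at 3421 to 4112 counts and MSLN at 1733 to 2315. Of 8 hepatocyte markers 5 were at 0 in all 8 libraries, and of 6 T and NK cell markers 3 were. Those averaging over 10 counts were SERPINA1 at 173 to 226 counts, APOA1 at 41 to 102 and the T cell marker IL7R at 150 to 203. Epithelial markers summed to 122564 to 132995 counts and stromal ones to 72899 to 84935.

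The libraries were alike in depth, at 18080396 to 18314293 counts. Mitochondrially encoded genes took 4.94% ± 0.104 of counts in controls and 4.90% ± 0.395 with PFOS (SD, n = 4, two-sided exact permutation p = 0.83). Ribosomal protein genes took 4.37% ± 0.131 and 4.57% ± 0.152 (exact permutation p = 0.143), and the 10 most abundant genes took 7.58% ± 0.149 and 7.5% ± 0.251 (exact permutation p = 0.629). The smallest p that 4 against 4 allows is 0.0286. On the first principal component, which held 28.9% of the variance, the controls scored -6.12, 0.15, -8.10 and -1.31 and the exposed libraries -6.38, 3.63, 7.99 and 10.1 for vials 1 to 4. The exposed library of vial 1 therefore lay among the controls.

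No gene passed in the main comparison. Of 12836 genes tested with edgeR's quasi-likelihood test, 0 reached an adjusted p of 0.05, which is 0% with or without the 2-fold criterion, and the lowest adjusted p was 0.242. At an unadjusted p under 0.05, 645 genes were higher (5.02% of those tested) and 587 lower (4.57%), together 1232 or 9.6%. The groups did not overlap, in CPM (counts scaled to the size of each library), for 272 higher genes (2.12%) and 206 lower genes (1.6%). Within vials, 1089 genes were higher in all 4 (8.48%) and 1072 lower in all 4 (8.35%). The differences leaned to neither side, with 51.1% of genes above 0 and a median log2 fold change of 0.0021.

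The differences were also small. The median absolute log2 fold change was 0.052 and the 99th percentile 0.52. For 11591 genes (90.3%) the whole 95% interval lay within 1.5-fold of no difference, and for 12531 (97.6%) within 2-fold. Only 18 genes had a fitted difference of 2-fold or more, of which 12 averaged at least 10 counts and 9 had an unadjusted p under 0.05. In counts simulated for each gene separately, with the depth of these libraries and the spread of that gene, the same test recovered 29 of 50 genes changed by 25%. It recovered 42 of 50 changed 1.5-fold, 49 of 50 changed 2-fold and 49 of 50 changed 4-fold, with 6 false calls among 12794 genes. With this many changed genes the adjusted threshold is easier to reach than where few change. Vial effects and shifts shared by many genes of a library were not simulated. In the real data PTGDS, 2.19-fold higher with an unadjusted p of 7.42e-05 (edgeR), had an adjusted p of 0.242. The recovery counts therefore do not show which changes the empty result excludes.

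**Figure D1:**
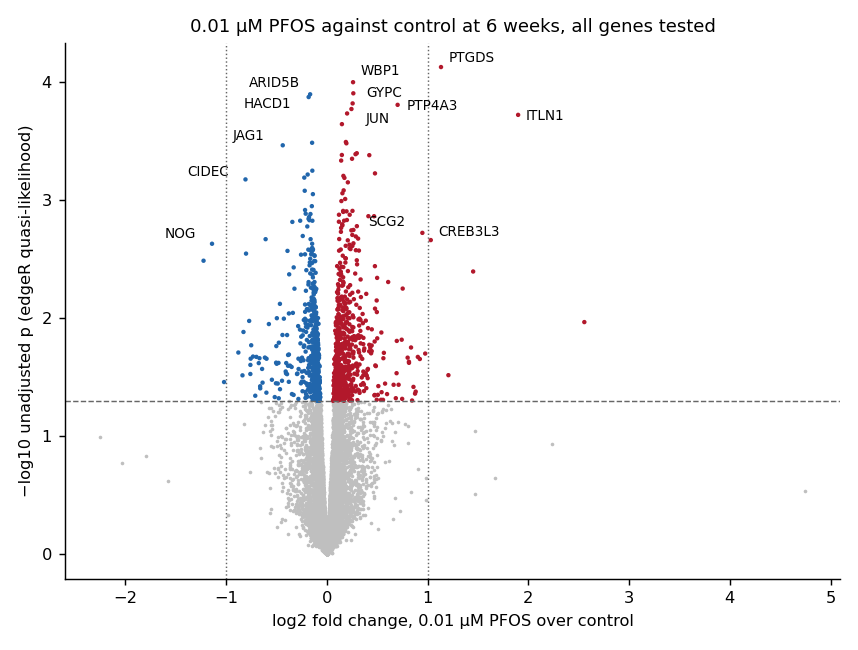
Log2 fold change (0.01 µM PFOS over control, x axis) against −log10 of the unadjusted p (y axis) for the 12836 genes tested. Red and blue points are the 645 higher and 587 lower genes with p under 0.05 (dashed line), dotted lines mark 2-fold, and no gene passed the adjusted threshold.

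The count of low p values hung on single cultures. Without the exposed library of vial 1 there were 994 higher and 956 lower genes at p under 0.05, 15 genes passed the adjusted threshold and 2 of them, PTGDS and ITLN1, also the 2-fold criterion. Without the exposed library of vial 3 the counts dropped to 392 and 352, and without that of vial 4 to 401 and 373, with 0 genes past the adjusted threshold each time. These settings were chosen after seeing the data. With the vial as a block in the fit, 723 genes were higher and 695 lower, and 1 gene, JUN, passed the adjusted threshold but not 2-fold.

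The 12 higher genes with the lowest p, among those whose normalised log2 CPM difference was above 0 in every vial, were PTGDS, WBP1, GYPC, JUN, PTP4A3, PLEKHA6, TCEAL3, ITLN1, PSME1, FBLN7, RAC2 and DDIT3. Their fold changes ran from 1.11 to 3.73 and their adjusted p from 0.242 to 0.280. The groups did not overlap for 10 of them, the exceptions being ITLN1, which was level in vial 1, and FBLN7. Because the genes were picked by low p and a shared direction, this separation is largely set by the choice. That holds for the single genes below as well. Over all genes tested, the groups did not overlap for 2.12% on the higher side.

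PTGDS, which makes prostaglandin D2 from prostaglandin H2, was at 1.93, 2.51, 1.92 and 1.38 CPM in the controls of vials 1 to 4. It was at 2.59, 4.92, 5.64 and 3.94 CPM with PFOS. Every exposed library lay above every control, although in vial 1 the margin over the highest control was slight. Its log2 fold change was 1.13 ± 0.23 (SE, adjusted p = 0.242). With 8 libraries and the vial as a block it passed both thresholds (adjusted p = 0.0372), as it did with DESeq2 on 16 libraries (adjusted p = 0.0279) and on 8 libraries (adjusted p = 0.0469).

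ITLN1, a secreted lectin of mesothelial and gut cells, was at 0.386, 0.328, 0.220 and 0.166 CPM in controls and 0.385, 1.11, 1.49 and 1.2 CPM with PFOS. These are 3 to 7 and 7 to 27 counts per library. Vials 2 to 4 were several fold higher while vial 1 was level, so the groups overlapped. The log2 fold change was 1.90 ± 0.43 (SE, adjusted p = 0.242), and 2.37 (adjusted p = 0.0313) when vial 1 was left out of every group. All 5 mesothelial markers, ITLN1 among them, were on the higher side, with a summed 6851 to 7404 counts in controls and 7404 to 8350 with PFOS. The surface protein UPK3B was the largest of the other 4, at a log2 fold change of 0.51 ± 0.22 (SE, unadjusted p = 0.0375, adjusted p = 0.493). The 4 tested granulosa markers were also all higher, as were 4 of 6 stromal and 3 of 6 epithelial ones. The part of a shift in the mesothelial marker set in the ITLN1 result was not tested.

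JUN, the AP-1 transcription factor subunit, was at 122, 103, 115 and 106 CPM in controls and 126, 128, 140 and 139 CPM with PFOS. The groups did not overlap, and the difference was smallest in vial 1, whose control was the highest. The log2 fold change was 0.26 ± 0.06 (SE, adjusted p = 0.242 without and 0.0282 with the vial as a block). The JUN promoter carries an AP-1-like element that its own product is known to bind, and the reference sequence is shown for that element. RefSeq (GRCh38.p14) gives the 250 bases before the start at chr1:58784048-58784297, minus strand, with TGACATCA in capitals, 67 bases before the start.

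JUN: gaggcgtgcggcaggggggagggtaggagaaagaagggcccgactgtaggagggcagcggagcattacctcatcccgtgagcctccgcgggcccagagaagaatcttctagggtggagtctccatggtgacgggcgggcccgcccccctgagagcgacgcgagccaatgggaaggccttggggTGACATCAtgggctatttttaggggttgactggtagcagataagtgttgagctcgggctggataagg

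That motif, on either strand, was in 2.37% of the 35116 promoter windows of this length. It is a description of the sequence and says nothing about binding in these cells.

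GYPC, a membrane skeleton anchor, was at 43.9, 48.0, 40.2 and 48.1 CPM in controls and 48.4, 52.9, 55.5 and 60.1 CPM with PFOS, a log2 fold change of 0.26 ± 0.06 (SE, adjusted p = 0.242). PSME1, a proteasome activator subunit, was at 152, 156, 143 and 138 CPM against 157, 168, 165 and 166 CPM, a log2 fold change of 0.15 ± 0.04 (SE, adjusted p = 0.264). DDIT3, the stress factor CHOP, was at 16.6, 17.6, 16.7 and 16.6 CPM against 18.4, 20, 23.5 and 21.2 CPM, a log2 fold change of 0.30 ± 0.07 (SE, adjusted p = 0.280). In all 3 genes every exposed library lay above every control, by small margins, and vials 3 and 4 differed more than vials 1 and 2.

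The 12 lower genes with the lowest p, among those below 0 in every vial on the same scale, were ARID5B, HACD1, AGFG1, JAG1, SIRPA, MAP4K3, MOSPD1, CIDEC, HSPA14, ABCE1, FGF2 and PPIF. They were 1.10-fold to 1.75-fold lower with an adjusted p of 0.242 to 0.349. The groups did not overlap for 11 of them, the exception being FGF2, which was level in vial 4. This separation too is largely set by the choice of genes. Over all genes tested, the groups did not overlap for 1.6% on the lower side.

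JAG1, a Notch ligand, was at 10.4, 9.28, 11.6 and 8.55 CPM in controls and 7.65, 7.19, 7.57 and 7.06 CPM with PFOS. All 4 exposed libraries were below the lowest control and close to each other, while the controls were spread. JAG1 had a log2 fold change of -0.44 ± 0.11 (SE, adjusted p = 0.280).

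CIDEC, a lipid droplet protein that lets droplets grow, was at 1.49, 1.58, 1.54 and 1.66 CPM in controls and 0.660, 0.940, 0.995 and 0.985 CPM with PFOS. The gap between the groups was wider than the spread within either, at some 22.4 counts a library on average. CIDEC had a log2 fold change of -0.81 ± 0.21 (SE, adjusted p = 0.305).

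ARID5B, a chromatin factor with a part in fat cell development, was at 131, 128, 135 and 128 CPM in controls and 119, 113, 117 and 117 CPM with PFOS, a log2 fold change of -0.17 ± 0.04 (SE, adjusted p = 0.242). HACD1, an enzyme of very long chain fatty acid elongation, was at 65.6, 66.2, 63.5 and 62.0 CPM against 58.6, 57.0, 57.3 and 54.9 CPM, a log2 fold change of -0.18 ± 0.04 (SE, adjusted p = 0.242). PPIF, the mitochondrial cyclophilin, was at 443, 427, 452 and 474 CPM against 401, 421, 364 and 371 CPM, a log2 fold change of -0.21 ± 0.06 (SE, adjusted p = 0.349). These 3 genes were measured closely, and the exposed libraries of all 4 vials were below every control.

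**Figure D2:**
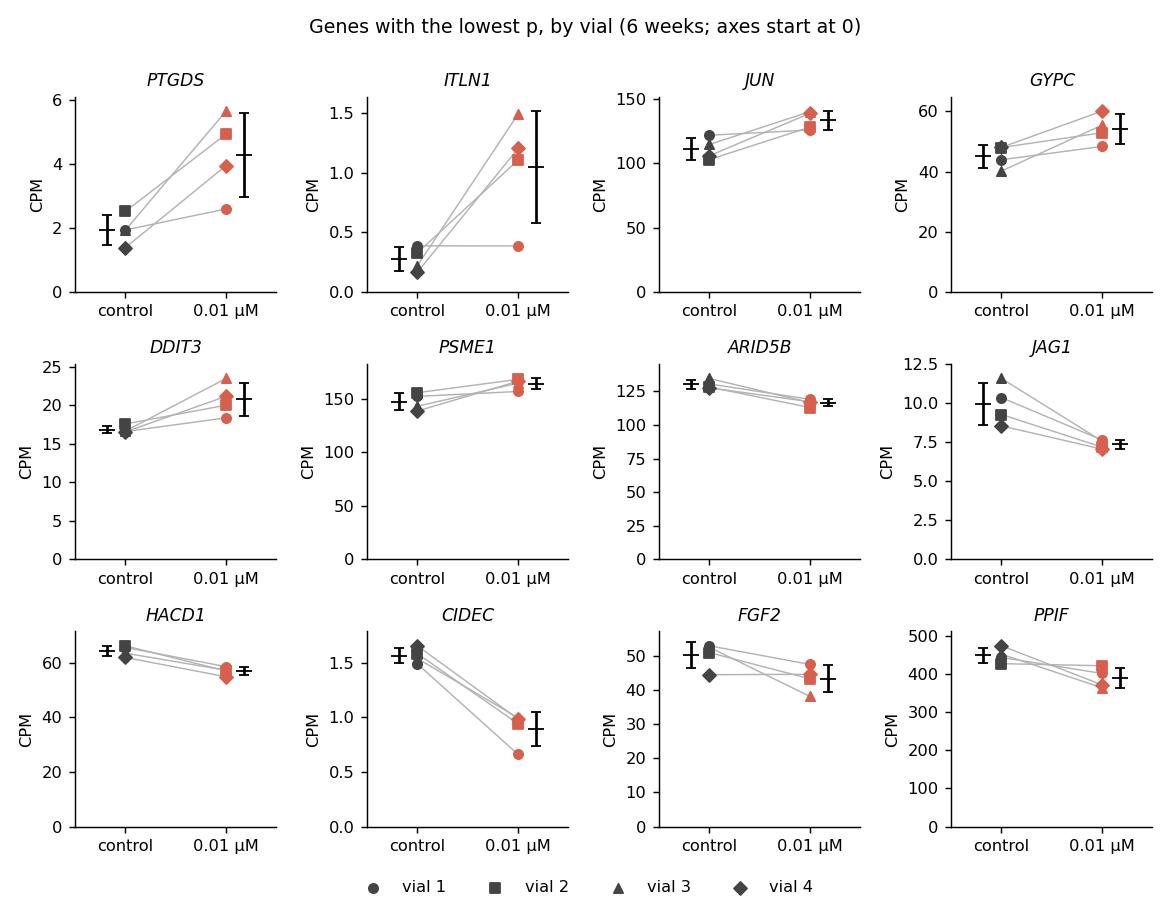
CPM (y axes, from 0) of 12 genes in each control and 0.01 µM PFOS library at 6 weeks, with lines joining the libraries of a vial and bars for the mean ± SD (n = 4). PTGDS and ITLN1 differ most in vials 2 to 4 and least in vial 1, and CIDEC and JAG1 are lower in every vial.

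Among genes with p under 0.05 and groups that did not overlap, the largest higher folds after PTGDS were in CREB3L3, a lipid-regulating transcription factor best known in liver, and SCG2, a granin of secretory vesicles. CREB3L3 averaged 0.440 ± 0.163 CPM in controls and 0.909 ± 0.149 CPM with PFOS (SD, n = 4), a log2 fold change of 1.03 ± 0.30 (SE, adjusted p = 0.374). SCG2 averaged 0.495 ± 0.136 and 0.964 ± 0.114 CPM (SD, n = 4), a log2 fold change of 0.95 ± 0.27 (SE, adjusted p = 0.372). The phosphatase PTP4A3 followed at 0.70, then the ciliary gene TEKT2 at 0.66 and the steroid reductase AKR1C2 at 0.58, a member of a family of near-identical genes whose reads are hard to assign.

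The largest lower folds of this kind were ZNF664-RFLNA at -1.02, CIDEC, ADAM11 at -0.80, DOCK4 at -0.77, RGPD5 at -0.70 and the proteoglycan VCAN at -0.67. ZNF664-RFLNA is a readthrough locus that overlaps other genes, and RGPD5 belongs to a family of recent copies, so both values are uncertain. RGPD5 passed the adjusted threshold with 8 libraries and the vial as a block (adjusted p = 0.000982) and with DESeq2 on 8 libraries (adjusted p = 0.0469), and so under the first of these did CEMIP, a hyaluronan-degrading protein (log2 fold change -0.41, adjusted p = 0.000186), which was named after its values were seen.

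The sulfotransferases SULT1A3 and SULT1A4 are near-identical copies. SULT1A4 had 325 counts and SULT1A3 27 in the exposed library of vial 1, against 0 or 1 and 355 to 393 counts in the other 7 libraries. Their sum was 359 ± 5.56 in controls and 371 ± 17.6 with PFOS (SD, n = 4, two-sided exact permutation p = 0.257). In the exposed library of vial 1 the sum was 352, a little below the 355 to 393 of the other 7 libraries.

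The 28 genes of cholesterol and fatty acid synthesis leaned to the higher side. Of these 26 were higher with PFOS, against 51.1% of all genes, with a median log2 fold change of 0.11 against 0.0021 over all genes. 9 had an unadjusted p under 0.05 on the higher side and 1 on the lower, the lowest adjusted p was 0.453, and none passed. Over all genes tested those shares were 5.02% and 4.57%, and 51.1% were above 0, and the counts of every list given here are to be read against these 3 values. The list median was 0.05, 0.07, 0.24 and 0.14 in vials 1 to 4, so it was above 0 in each and largest in vial 3. Over all alternatives it stayed between 0.06 and 0.18.

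SCD, the desaturase that makes oleate, was at 380, 514, 442 and 485 CPM in controls and 416, 591, 663 and 676 CPM with PFOS. Each exposed library was above its own control, but vial 1 exposed stayed below the 3 other controls. For SCD the log2 fold change was 0.36 ± 0.15 (SE, adjusted p = 0.490). FADS2, a polyunsaturated fatty acid desaturase, was at 672, 782, 709 and 771 CPM against 701, 890, 1029 and 1013 CPM, a log2 fold change of 0.30 ± 0.12 (SE, adjusted p = 0.470). FDPS, which makes farnesyl diphosphate, was at 317, 397, 331 and 373 CPM against 335, 427, 469 and 469 CPM, a log2 fold change of 0.26 ± 0.10 (SE, adjusted p = 0.470). In all 3 the exposed libraries of vials 2, 3 and 4 lay above every control and that of vial 1 lay among the controls.

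The sterol sensor protein INSIG1 was at a log2 fold change of 0.29 ± 0.13 (SE, adjusted p = 0.503), HMGCS1, which starts the mevalonate pathway, at 0.25 ± 0.11, the transcription factor SREBF1 at 0.22 ± 0.08, the desaturase FADS1 at 0.18 ± 0.08 and the sterol oxidase MSMO1 at 0.16 ± 0.07. Squalene epoxidase SQLE was at 0.09 ± 0.05 and fatty acid synthase FASN at 0.20 ± 0.12 (unadjusted p = 0.129). The sterol desaturase SC5D was the one gene with p under 0.05 on the lower side, at -0.12 ± 0.05 (SE, adjusted p = 0.462). The 15 enzymes of the sterol pathway had a median of 0.09 and the 7 of fatty acid synthesis one of 0.18.

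The 12-week libraries came from the same cultures carried on, with controls of their own. At 12 weeks 1 of these 28 genes was higher with 0.01 µM PFOS, and the list median was -0.11. The difference between the 2 times had an unadjusted p under 0.05 for 16 of 28 genes, against 7.48% of all 12988 genes in that test, and none passed the adjusted threshold. SCD was at -0.10 ± 0.10 and FADS2 at -0.03 ± 0.07 at 12 weeks (SE). The comparisons of 0.1 and 1 µM with control at 6 weeks share these control libraries. Their list medians were 0.18 and 0.14 beside 0.11 at 0.01 µM, and SCD was at 0.64 and 0.50.

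The promoters of 4 of these genes, all with a CCAAT match, are shown because SREBP is known to act with the CCAAT-binding factor NF-Y. RefSeq windows (GRCh38.p14) of 250 bases before the start matched 21 of the 28 genes, in 30 windows, and 20 of these (66.7%) held CCAAT on either strand against 32% of the 35116 windows. The sterol regulatory element searched, TCACNCCAC on either strand, was in 1 of the 30 (3.33%) against 0.883% of all windows. Capitals mark CCAAT or its reverse complement ATTGG in FDPS (chr1:155308616-155308865, plus strand), MSMO1 (chr4:165327419-165327668, plus), SCD (chr10:100346983-100347232, plus) and INSIG1 (chr7:155297628-155297877, plus).

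FDPS: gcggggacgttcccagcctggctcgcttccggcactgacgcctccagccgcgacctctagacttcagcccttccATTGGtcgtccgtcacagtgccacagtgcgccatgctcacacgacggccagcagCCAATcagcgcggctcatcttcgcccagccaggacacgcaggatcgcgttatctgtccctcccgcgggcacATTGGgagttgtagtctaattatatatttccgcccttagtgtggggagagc
MSMO1: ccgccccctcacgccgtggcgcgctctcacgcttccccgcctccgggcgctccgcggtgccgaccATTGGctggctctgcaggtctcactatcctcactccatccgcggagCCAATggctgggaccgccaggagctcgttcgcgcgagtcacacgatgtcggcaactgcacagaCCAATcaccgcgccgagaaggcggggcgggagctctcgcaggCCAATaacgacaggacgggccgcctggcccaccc
SCD: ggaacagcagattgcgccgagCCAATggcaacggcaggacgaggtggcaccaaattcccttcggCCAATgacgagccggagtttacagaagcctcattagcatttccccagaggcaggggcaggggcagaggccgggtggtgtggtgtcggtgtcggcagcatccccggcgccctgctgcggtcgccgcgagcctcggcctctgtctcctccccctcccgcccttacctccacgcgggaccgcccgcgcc
INSIG1: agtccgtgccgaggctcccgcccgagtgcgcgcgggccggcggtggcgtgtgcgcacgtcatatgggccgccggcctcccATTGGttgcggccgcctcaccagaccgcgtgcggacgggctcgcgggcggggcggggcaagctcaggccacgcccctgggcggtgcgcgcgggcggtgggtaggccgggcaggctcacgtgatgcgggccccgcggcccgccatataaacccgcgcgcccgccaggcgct

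FDPS held 3 matches, MSMO1 4, SCD 2 and INSIG1 1. By gene, 16 of the 21 matched genes held CCAAT, while SREBF1, CYP51A1, FADS1, FADS2 and ELOVL6 held none. A match of 5 letters is common and is given as a description only. The cholesterol efflux and uptake list, for comparison, had 8 of 14 genes on the higher side and a median of 0.03, with none at p under 0.05. The 24 tested genes of fatty acid receptors and oxidation, the programme through which PFOS is best known to act in liver, had 10 higher and a median of -0.01. The fatty acid import enzyme CPT1A was at 0.01 ± 0.05 (SE), and the fatty acid carrier FABP3 at 0.18 ± 0.07 and the uncoupling protein UCP2 at 0.11 ± 0.04 were the 2 with an unadjusted p under 0.05.

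Of 23 tested steroidogenesis genes 15 were higher, with a median of 0.03. STAR, which delivers cholesterol to the inner mitochondrial membrane, was at 2.98, 3.17, 2.64 and 2.59 CPM in controls and 3.19, 3.93, 4.20 and 3.61 CPM with PFOS. The groups did not overlap, though vial 1 exposed was level with the highest control. Its log2 fold change was 0.39 ± 0.14 (SE, adjusted p = 0.453), and -0.28 ± 0.27 at 12 weeks. The electron donor enzyme FDXR was at 0.18 ± 0.07 (SE, adjusted p = 0.462), while CYP11A1, the side chain cleavage enzyme that follows STAR, was at -0.13 ± 0.30 from 29.6 counts on average. Of 19 tested granulosa identity genes 10 were higher and 9 lower, with 0 higher and 3 lower at p under 0.05 (5.02% and 4.57% of all genes). These 3 were the activin subunit INHBA at -0.35 ± 0.14, the transcription factor RUNX2 at -0.13 ± 0.05 and N-cadherin CDH2 at -0.10 ± 0.04 (SE).

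Around PTGDS the other 10 tested prostaglandin genes were mixed, with 6 of 11 higher and a median of 0.04. PTGS1, the cyclooxygenase that feeds PTGDS, was at 9.43, 7.81, 6.05 and 6.07 CPM in controls and 8.58, 10.2, 11.0 and 9.25 CPM with PFOS, higher in vials 2 to 4 and lower in vial 1. Its log2 fold change was 0.41 ± 0.17 (SE, adjusted p = 0.473). The prostacyclin synthase PTGIS was at 0.17 ± 0.07 and the prostaglandin reductase PTGR1 at -0.11 ± 0.05.

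Matrix genes leaned the other way. Of 31 extracellular matrix genes 27 were lower, with a median log2 fold change of -0.09, 0 higher and 5 lower at p under 0.05 (5.02% and 4.57% of all genes), and a lowest adjusted p of 0.374. The median was -0.05, -0.02, -0.09 and -0.10 in vials 1 to 4, and -0.08 at 12 weeks. The basement membrane collagen COL4A1 was at -0.15 ± 0.04 (SE, adjusted p = 0.374), the fibril-associated collagen COL12A1 at -0.14 ± 0.05, the thrombospondin THBS2 at -0.23 ± 0.10 and the laminin chain LAMC1 at -0.08 ± 0.03. The fibrillar collagens COL1A1 at 0.06 ± 0.06 and COL3A1 at 0.10 ± 0.09 were among the 4 on the higher side.

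Of 32 tested genes of the TGF-beta, activin and BMP list 24 were lower, with a median of -0.08 and 8 at p under 0.05, all lower (4.57% of all genes). Among ligands, INHBA and BMP2 were at -0.35 ± 0.14 and -0.38 ± 0.15, TGFB2 at -0.20 ± 0.13 and TGFB1 at 0.05 ± 0.06 (SE). The receptor TGFBR1 was at -0.26 ± 0.10. Among antagonists, the BMP-binding NOG was at 1.10, 0.546, 1.21 and 1.05 CPM in controls and 0.550, 0.664, 0.166 and 0.383 CPM with PFOS, lower in vials 1, 3 and 4, for a log2 fold change of -1.14 ± 0.34 (SE, adjusted p = 0.374) at an average of 12.9 counts. Among targets, ID3 was at -0.15 ± 0.04 (adjusted p = 0.349) and ID2 at -0.24 ± 0.08. At 12 weeks, TGFBR1 was at -0.18 ± 0.07 (unadjusted p = 0.0238) and INHBA at -0.65 ± 0.28 (unadjusted p = 0.0379), neither past the adjusted threshold, and the list median was -0.04. On the other side of 0 at that time were ID3 at 0.17 ± 0.11, NOG at 0.15 ± 0.47 and ID2 at 0.05 ± 0.11, with an unadjusted p for the difference between the times of 0.0137, 0.0356 and 0.0498 (edgeR).

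A set of contractile genes, chosen in addition to the 32 lists, was lower in the fit for 6 of 6, with a median of -0.16. Its member ACTA2 is also counted in the epithelial and mesenchymal list, so the 2 are not separate results. TAGLN, an actin-binding smooth muscle protein, was at 634, 527, 754 and 652 CPM in controls and 617, 474, 441 and 428 CPM with PFOS. In vials 1 and 2 it was little below its control and in vials 3 and 4 far below. The median of the 6 genes was 0.09, -0.06, -0.38 and -0.40 in vials 1 to 4, so in vial 1 the set was on the higher side. The log2 fold change of TAGLN was -0.39 ± 0.14 and that of smooth muscle actin ACTA2 -0.44 ± 0.15 (SE, adjusted p = 0.462 for both), and at 12 weeks they were at -0.01 ± 0.13 and -0.03 ± 0.13. TAGLN averaged 642 CPM in controls and 490 CPM with PFOS at 6 weeks, and 468 and 465 CPM at 12 weeks. For ACTA2 these means were 29.0 and 21.4 CPM at 6 weeks, and 15.9 and 15.6 CPM at 12 weeks. The controls of both genes were thus lower at 12 weeks. Of 19 targets of the YAP and TEAD factors 15 were lower, with a median of -0.05, but CCN2, a defining target, was at 0.16 ± 0.05 (SE, unadjusted p = 0.00692).

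**Figure D3:**
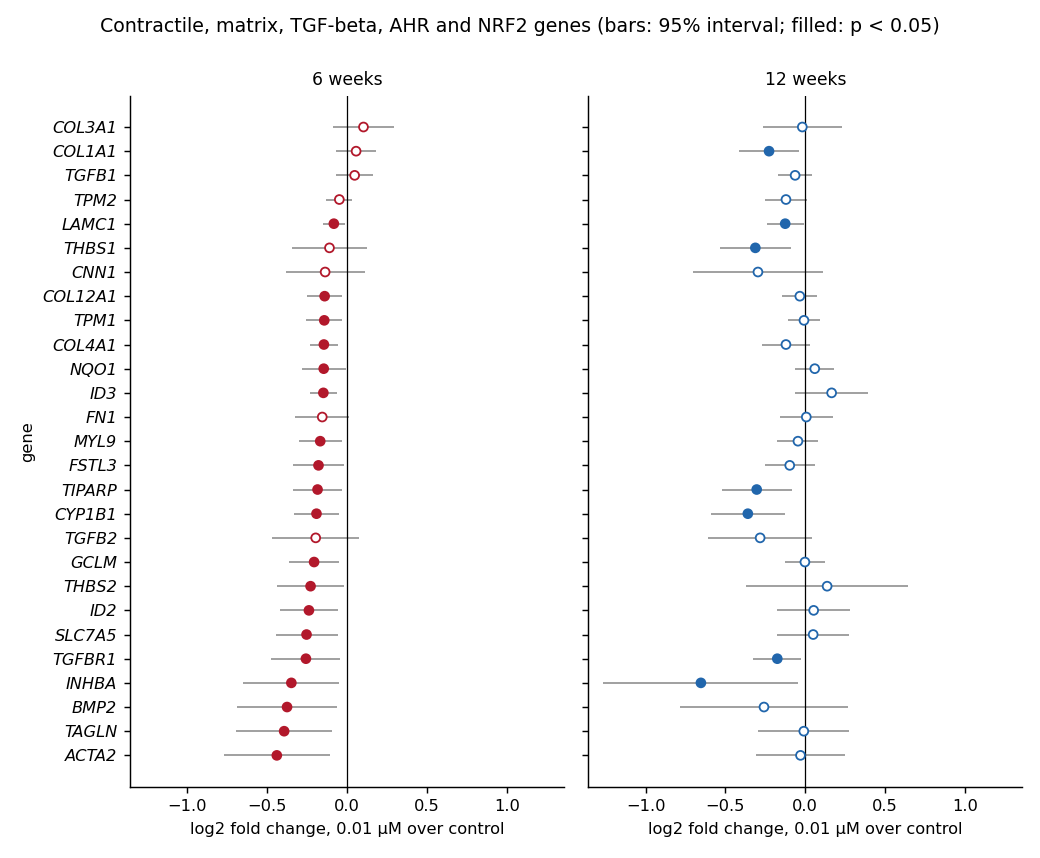
Log2 fold change of 0.01 µM PFOS over control (x axes) with 95% intervals for 27 contractile, matrix, TGF-beta, AHR and NRF2 genes at 6 weeks (left) and 12 weeks (right), with filled points for an unadjusted p under 0.05. The genes were picked from these groups with results of these data known, so their share below 0 does not describe the groups. All but 3 of the genes lie below 0 at 6 weeks. ACTA2 and TAGLN, the lowest at 6 weeks, lie at 0 at 12 weeks, when their control levels were lower than at 6 weeks.

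The aryl hydrocarbon receptor (AHR) senses planar pollutants, and 8 of 10 tested genes of its list were lower, with a median of -0.10. CYP1B1 was at 519, 464, 500 and 469 CPM in controls and 488, 457, 377 and 392 CPM with PFOS, for a log2 fold change of -0.19 ± 0.07 (SE, adjusted p = 0.459). TIPARP was at -0.18 ± 0.07, NQO1 at -0.15 ± 0.07 and the amino acid transporter SLC7A5 at -0.25 ± 0.09, while CYP1A1, the most inducible target, was at -0.001 ± 0.32 from 16.5 counts. At 12 weeks CYP1B1 was at -0.36 ± 0.11 (unadjusted p = 0.0048) and TIPARP at -0.30 ± 0.10 (unadjusted p = 0.00938), but SLC7A5 was at 0.05 ± 0.11 and NQO1 at 0.06 ± 0.06, and 5 of the 10 genes were higher. Of 24 targets of the antioxidant factor NRF2 17 were lower, with a median of -0.07, among them the glutathione synthesis subunit GCLM at -0.21 ± 0.07 and the peroxidase PRDX1 at -0.10 ± 0.04, while HMOX1 was at -0.02 ± 0.06.

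Of 17 heat shock genes 14 were lower, with a median of -0.06 and 4 lower at p under 0.05 (4.57% of all genes). Those with the lowest p were HSPH1 at -0.16 ± 0.05 and HSPA8 at -0.10 ± 0.04 (SE). The 27 genes of the unfolded protein and integrated stress responses were even, with 15 higher and a median of 0.01. DDIT3 and the sensor ERN1 at 0.19 ± 0.07 were its 2 members with p under 0.05, and ATF4, a factor known to induce DDIT3, was at -0.01 ± 0.03.

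Of 29 tested immediate early genes, which answer growth signals within minutes, 19 were higher, with a median of 0.05. Beside JUN, the transcription factor KLF2 was at 0.20 ± 0.08 and FOS at 0.14 ± 0.08, while NR4A3, an orphan nuclear receptor, was at -0.50 ± 0.16 (SE, adjusted p = 0.453). NR4A3 was at 51.3, 43.1, 41.7 and 31.5 CPM in controls and 33.4, 32.5, 27.4 and 25.8 CPM with PFOS, lower in every vial although the groups overlapped, and with 8 libraries and the vial as a block it passed the adjusted threshold (adjusted p = 0.000982) but not 2-fold. The list median was -0.12, 0.09, 0.06 and 0.14 in vials 1 to 4.

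Inflammatory genes were higher for 16 of 24, with a median of 0.06, and the chemokine CXCL2 was at 92.7, 90.2, 76.7 and 64.3 CPM in controls against 94.4, 99, 107 and 102 CPM, a log2 fold change of 0.31 ± 0.12 (SE, adjusted p = 0.473). IL6 was at -0.06 ± 0.09. Of 28 interferon-stimulated and antigen presentation genes 23 were higher, with a median of 0.07 and 6 higher at p under 0.05 (5.02% of all genes). The class I antigen-presenting chains HLA-C and HLA-B were each at 0.12 ± 0.04 (SE), and reads of these variable, related genes are uncertain in their assignment. The interferon-induced genes IFI6 and XAF1 were at 0.21 ± 0.07 and 0.21 ± 0.09. The interferon target ISG15 was at 0.06 ± 0.10, and at 12 weeks the list median was -0.09.

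Of 40 cytosolic ribosomal protein genes 37 were higher, with a median of 0.06 and 10 higher at p under 0.05 (5.02% of all genes), among them RPLP1 at 0.12 ± 0.04 and RPS29 at 0.18 ± 0.08 (SE, adjusted p = 0.374 for RPLP1). The median was 0.02, -0.02, 0.09 and 0.16 in vials 1 to 4, and 0.14 at 12 weeks with 40 of 40 higher. Transcript length moved with the fold change. In 5 equal groups of genes from the shortest to the longest, the median log2 fold change was 0.02, 0.01, 0.0002, -0.01 and -0.01, and in vial 3 it went from 0.04 to -0.04, whereas in vial 2 it ran from -0.01 to 0.01. Of the 40 ribosomal protein genes 30 were in the shortest group, and of 24 matrix genes with at least 50 counts 15 were in the longest. Of 25 interferon-stimulated genes with as many counts 12 were in the shortest group and 1 in the longest. The other way went 27 cholesterol and fatty acid synthesis genes, with 1 in the shortest group, and 6 contractile genes, with 4. The part of length in any of these lists was not tested.

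Energy genes differed little. The 33 nuclear respiratory chain genes had 19 higher and a median of 0.01, the 33 glycolysis and hypoxia genes 14 higher and a median of -0.01, and 10 of 13 mitochondrially encoded genes were lower, with a median of -0.05 that came from vial 4, at -0.23 against 0.02, -0.01 and 0.06 in vials 1 to 3. The hexokinase HK2 was at -0.25 ± 0.10 and the glucose transporter SLC2A1 at -0.13 ± 0.04 (SE, adjusted p = 0.473 and 0.453).

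Of 37 proliferation genes 24 were higher, with a median of 0.02 and 5 higher and 0 lower at p under 0.05 (5.02% and 4.57% of all genes). The proliferation antigen MKI67 was at 0.07 ± 0.03 and the mitotic kinase AURKB at 0.09 ± 0.03 (SE). Of 28 tested genes of the p53 and apoptosis list 18 were higher, with a median of 0.02. The p53 target CDKN1A was at 0.02 ± 0.05, and the death factor PMAIP1 was on the lower side at -0.12 ± 0.05. Of 16 genes of other forms of cell death 9 were higher, among them the inflammasome adaptor PYCARD at 0.32 ± 0.12, and the ferroptosis guard GPX4 was at 0.06 ± 0.04.

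Growth factor ligands and receptors were lower for 21 of 26, with a median of -0.05. FGF2, a ligand that granulosa cells make, was at 52.9, 50.9, 52.5 and 44.5 CPM in controls and 47.5, 43.3, 38.1 and 44.6 CPM with PFOS, lower in vials 1 to 3 and level in vial 4. Its log2 fold change was -0.22 ± 0.06 (SE, adjusted p = 0.349), and the receptor FGFR3 was at -0.26 ± 0.07. WNT pathway genes were lower for 17 of 24, with a median of -0.06 and 1 at p under 0.05, the antagonist DKK3 at -0.14 ± 0.05. The G-protein signaling list had 18 of 31 lower and a median of -0.06, with the phosphodiesterase PDE1C at -0.34 ± 0.10. Of 8 metallothionein genes and regulators 7 were higher, with a median of 0.11, led in counts by MT2A at 0.14 ± 0.05. Of 15 clock genes 8 were higher, and the clock output factor DBP was at 0.43 ± 0.17 and the core factor BMAL1 at -0.15 ± 0.10. Matrix proteases and fibrinolysis genes were split, with 9 of 17 higher, among them the gelatinase MMP2 at 0.20 ± 0.07. Of 28 epithelial and mesenchymal genes 18 were lower, while the keratin KRT19 was at 0.18 ± 0.06 and the tight junction gene CLDN1 at 0.19 ± 0.08. Of 9 replication-dependent histone genes 5 were higher, and their vial medians ran from -0.14 in vial 2 to 0.28 in vial 4.

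Higher concentrations were set against 0.01 µM directly, in the same fit. Past the adjusted threshold and 2-fold there were 4 genes at 0.1 µM (0.0312% of those tested) and 5 at 1 µM (0.039%). ALB, AFP, AHSG and APOB, which encode plasma proteins made by liver cells, were the 4, and at 1 µM the mitochondrial gene MT-ATP8 was added, at a log2 difference of 1.94 ± 0.34 (SE, adjusted p = 0.0415). With the vial as a block there were 5 and 4. The sum of ALB, AFP, AHSG, APOB, GPC3 and AMBP was 0 to 1 counts per library in controls and 0 to 1 at 0.01 µM, against 89 to 141 at 0.1 µM and 88 to 115 at 1 µM. No fold is given between control and 0.01 µM, since both were under 3 counts. APOA1, which was present throughout, was at a log2 fold change of 0.47 ± 0.18 at 0.01 µM (SE, adjusted p = 0.462).

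At 12 weeks, 1080 genes (8.48% of 12742 tested) had an unadjusted p under 0.05 for 0.01 µM against control. The difference of the 0.01 µM effect between 6 and 12 weeks passed the adjusted threshold for 0 genes (0%) by edgeR, with 972 (7.48%) at an unadjusted p under 0.05. Of 638 genes that were higher at p under 0.05 at 6 weeks and tested at 12 weeks, 379 (59.4%) were above 0 at 12 weeks, and of 579 lower genes 352 (60.8%) were below 0, while 51.1% of all genes were above 0 then. Of the 12 higher genes with the lowest p, 6 were higher at 12 weeks and 0 had p under 0.05 there, and of the 12 lower genes 6 were lower and 2 had p under 0.05. ARID5B was at -0.16 ± 0.06 (SE, unadjusted p = 0.0159) and PPIF at -0.36 ± 0.14 (unadjusted p = 0.0191) at 12 weeks. PTGDS, by contrast, averaged 1.94 CPM in controls and 4.27 CPM with PFOS at 6 weeks, and 9.84 and 9.06 CPM at 12 weeks. Its control level at 12 weeks was thus above its exposed level at 6 weeks. The log2 fold change of PTGDS at 12 weeks was -0.12 ± 0.26, with an unadjusted p of 0.00492 for the difference between the times (edgeR, adjusted p = 0.556). The lowest adjusted p for that difference among the 24 genes was 0.343, shared by TCEAL3, HACD1, CIDEC and HSPA14.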

How the data were processed

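Polyadenylated RNA of 32 HGrC1 cultures (8 groups of 4) was sequenced as stranded libraries. Per the labels, the authors used HISAT2 2.0.4, Bowtie2 2.2.5 and RSEM 1.2.8 with GRCh38.p14, and they deposited expected counts and TPM per gene. The files list 47137 genes, 18583 with values. The expected counts were rounded to whole numbers, and TPM served only for transcript length.

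The 16 libraries of 6 weeks entered one fit (edgeR 4.0.16, TMM, filterByExpr, robust quasi-likelihood, R 4.3.3), with Benjamini-Hochberg adjustment over all genes and thresholds of adjusted p 0.05 and 2-fold. Spread measures used genes averaging at least 50 counts. Within-vial differences used log2 CPM with a prior count of 2. The test was tested on simulated data. Gene groups and named genes were chosen with earlier results of these data known. Named genes were those with the lowest p in one direction in all vials, those with the largest folds, those past both thresholds in any alternative, and members or defining genes of the 32 lists.

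The labels pair replicates by vial. Same-vial deviations correlated at 0.14, 0.00, -0.08 and 0.20, with a mean of -0.02 between vials. Deviations were taken from each group's own mean, which ties the value between vials to those within. The value between vials is therefore no separate baseline. Replicates of a group were never identical. The p-values measure the spread between cultures of one line. Alternatives were a vial block, other sets of libraries, DESeq2 1.42.0, RLE size factors, other filters and leaving out each vial or library. A few genes of the lists are counted but not reported here by name.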

Additional observations from a re-analysis of the deposited data

Results flagged for a closer look

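Of 254 gene and group combinations checked, 14 held 1 library far from the other 3 of its group, and chance gives about 1 in 20. In the 0.01 µM library of vial 1, CPM was 50.5 for FBLN7 (others 56.3 to 56.6), 0.66 for CIDEC (0.94 to 0.995), 0.99 for INHA (1.33 to 1.38), 652 for PTGIS (736 to 751), 55.7 for WT1 (67.2 to 68.6), 94.3 for TGFBR1 (74.8 to 77.1) and 1.49 for SULT1A3 (19.9 to 21.7). In other exposed libraries it was 140 for RPS29 in vial 2 (129 to 130), 9.4 for FGFR3 in vial 3 (11.9 to 12.3) and 19.7 for HSPA14 in vial 4 (20.5 to 20.6). In controls it was 17.6 for DDIT3 in vial 2 (16.6 to 16.7), 195 for SLC7A5 in vial 2 (241 to 248), 15.4 for ISG15 in vial 3 (18.5 to 18.8) and 15.6 for ERN1 in vial 4 (18.3 to 18.7). The exposed library of vial 1 held 7 of the 14.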

How the results depend on the processing

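Past the adjusted threshold and 2-fold there was 1 gene (PTGDS) with 8 libraries and a vial block, with DESeq2 on 16 and on 8 libraries, and 0 to 2 when a vial or library was left out. Past the adjusted threshold alone there was 1 gene with the vial as a block, 4 with 8 libraries and the block, 1 and 2 with DESeq2 on 16 and 8 libraries, and 0 to 15 when a vial or library was left out. Genes higher at p under 0.05 numbered 411 in one fit of 32 libraries, 358 with DESeq2 on 8 and 283 to 994 on leaving out a vial or library, and lower genes 353, 356 and 194 to 956. The low ends were without vial 3 and the high ends without the exposed library of vial 1. The cause was not tested.

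The difference between 6 and 12 weeks passed for 0 to 3 genes when a vial was left out. With at least 10 counts in every library, 0 genes passed between 0.1 and 0.01 µM and 1 between 1 and 0.01 µM, since the liver genes were no longer tested. The mitochondrial share differed by -0.17 to 0.098 percentage points and that of the 10 most abundant genes by -0.17 to 0.058 when a vial was left out.

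Genes near 0 changed sign when a vial or library was left out, with log2 fold changes of ATF4 from -0.016 to 0.0049, CDKN1A from -0.036 to 0.046, COL1A1 from -0.0038 to 0.11, CPT1A from -0.029 to 0.046, CYP11A1 from -0.32 to 0.093, CYP1A1 from -0.16 to 0.17, GATA4 from -0.017 to 0.081, IL6 from -0.12 to 0.045, ISG15 from -0.032 to 0.11 and SULT1A3 from -0.50 to 0.075. Genes under 30 counts carry wide errors at this depth.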
